A study of Simmondsia chinensis with 44 samples.

Results

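In developing jojoba seed, 200 genes stood at nearly the same level in early and mid seed and then dropped at least 4-fold below that plateau in late and dry seed. They were taken from 23491 counted genes by their group means in the time course, each mean raised by 1. A gene had to differ by less than 2-fold between early and mid seed, reach at least 20 normalised counts in both, and lie in both at least 4-fold above the higher of late and dry seed. These thresholds were passed by 286 genes, and the 200 with the highest mid-seed mean were kept, 0.851% of the genes in the table. A plateau alone was common, since 13446 genes met the first conditions whatever their later level, and the 286 genes were 2.13% of them. The fall after mid seed therefore chose the genes, and every time-course value below describes that choice and carries no test. The dissected tissues were not used to choose them, and tests are given only there.

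The embryo of jojoba (Simmondsia chinensis), a shrub of deserts, stores liquid wax esters, mainly in the cotyledons, in place of the triacylglycerol oil of most oilseeds. The cotyledons and the embryonic axis are the offspring, whereas the seed coat is maternal tissue that encloses the embryo and through which the mother plant supplies it during filling. In seeds generally, growth and filling are followed by maturation and drying, and the dry seed holds a stored set of transcripts.

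All libraries were labelled as one germplasm line, PARL# 940, and as mRNA libraries made with a stranded kit, with no treatment named. The time course held early stage, mid stage and late stage developing seed and dry seed, with 6 libraries each. A second series held cotyledons, embryonic axis, seed coat and whole seed, all of mid stage developing seed, with 5 libraries each. The labels give no ages in days, do not say whether libraries of a group came from separate plants, and do not say whether time-course seeds kept their coat. The p-values thus rest on differences between libraries that may be technical repeats. Total counts ranged from 7713214 to 23773845 per library in the time course and from 9882334 to 32758764 in the dissection series. Dry seed was the deepest stage, with at least 15658880 counts in each library. The gene identifiers come without names or functions, so no role is given to any gene and no tissue marker could be checked. Levels are normalised counts, the authors' values scaled to library size. They are not divided by gene length, so they compare libraries and not genes.

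The genes together supplied a falling share of all counts. They took 2.60% ± 0.24 (SD, n = 6) of the counts in early seed and 1.98% ± 0.33 in mid seed. In late seed the share was 0.255% ± 0.041 and in dry seed 0.0428% ± 0.0156. The early libraries spanned 2.37% to 2.94% and the mid libraries 1.65% to 2.59%, so these stages overlapped. The late libraries lay between 0.188% and 0.301% and the dry libraries between 0.0273% and 0.0709%, apart from each other and from the plateau. A single gene, Sc02g0007870, was a large part of this share. Without it the means were 2.03% in early, 1.62% in mid, 0.186% in late and 0.0428% in dry seed.

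**Figure D1:**
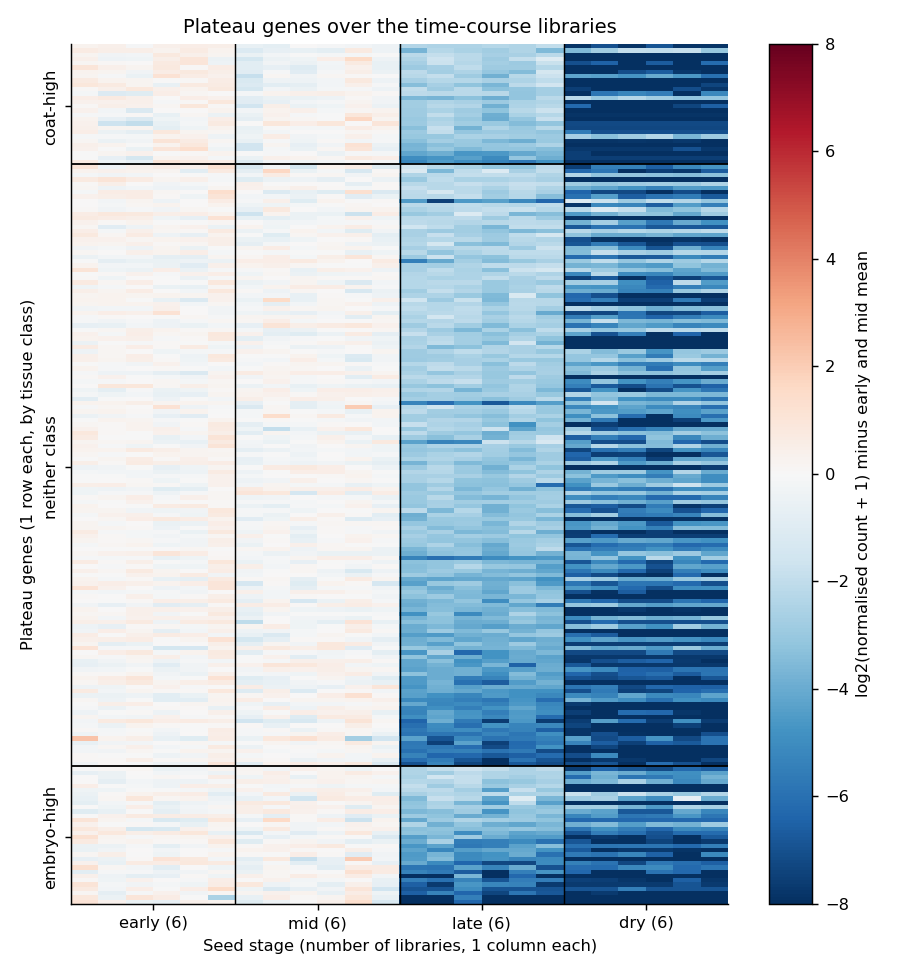
Each row is 1 of the 200 genes and each column 1 of the 24 time-course libraries, with colour showing log2 of the normalised count plus 1 minus the gene's mean over early and mid seed. Rows are grouped by tissue class and ordered by the size of the fall. Most late columns are pale to mid blue, while dry columns run from pale to the darkest blue, where the scale ends.

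Within the plateau the genes leaned slightly toward early seed. The early mean was above the mid mean for 121 genes and below it for 79, and the median early over mid ratio was 1.1, with 80% of the genes between 0.693 and 1.69. In 139 of the 200 genes the stages lay within 1.5-fold of each other. The rule capped this ratio at 2-fold, so its range is a property of the choice. The direction was not counted over all genes, so this lean is not set apart from theirs.

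The fall was uneven among the genes. The lower plateau mean was at least 8-fold above the higher later mean in 77 genes, at least 16-fold in 38, at least 32-fold in 20 and at least 64-fold in 7. The median of this ratio was 6.30, and the largest was 372. From mid to late seed the genes fell by a median of 7.70-fold. The 15879 genes with at least 20 normalised counts in early and mid seed had a median of 1.04. The rule required at least 4-fold in this step, so the gap is a property of the choice. From late to dry seed the median was a further 5.32-fold, against 1.1 for the same 15879 genes. These ratios use means raised by 1. With no such addition, and with genes without a count in dry seed set at the floor of 3 counts in each library, the median over the 200 genes was 5.98.

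Most of the genes went on falling after late seed, but not all. Dry seed lay below late seed in 182 genes, by at least 4-fold in 118 and by at least 16-fold in 58. In 47 genes late and dry seed were within 2-fold of each other, and in 18 dry seed was higher, in 4 of them by at least 2-fold. Counts at these folds were not made over all genes, and the rule asked for low dry-seed levels, so they do not set the 200 apart. How often dry seed was higher over all genes is given below by tissue class. No count at all was found in any dry library for 19 genes, or 9.50%. Of the 15879 genes at 20 in early and mid seed, 234, or 1.47%, had none. The rule asked for low dry-seed levels, so this gap is in part a property of the choice. A further reading of the same values, at most 3 counts in each dry library, took in 60 genes and was not made over all genes. None of the 200 was without counts in all late libraries. Where a count is 0, the floor of 3 counts covers counting error only. The spread between libraries grew as the level fell, with a median coefficient of variation of 22.9% in early, 23.9% in mid, 34.9% in late and 70.8% in dry seed. Over all genes with at least 20 normalised counts in the stage it was 14.8%, 16.6%, 15.8% and 22.3%. That level was not asked of the 200 genes, whose median in the dry libraries was 2.90 to 7.22. The 70.8% and 22.3% thus come from unlike levels.

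The genes closest to the thresholds show how narrow the choice was. Just inside the 4-fold limit stood Sc08g0004290, with means of 281.9 in early, 146.4 in mid, 35.7 in late and 2.93 in dry seed, a ratio of 4.01. Just outside it stood Sc08g0009080, with 104.6, 105.8, 25.7 and 4.0 and a ratio of 3.96. The last gene kept among the 200 was Sc15g0005800, at 96.7 in mid seed and 7.60 in late seed, and the first left out was Sc16g0004360, at 95.5 and 22.0.

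Identifier Sc02g0007870 carried the most counts in mid seed. It ran from 51291 to 86999 normalised counts in early seed with a median of 61319, from 22171 to 89868 in mid seed with a median of 39575, and from 8208 to 12817 in late seed with a median of 9963. In dry seed 3 reads were counted over all 6 libraries, against 53306 in late seed, a pooled ratio of 28185 with a 95% exact interval from 9644 to 136675 that covers counting error only. Every late library lay below every mid library, and the 4.53-fold step from mid to late seed was near the rule's limit, so in fold terms most of its loss came after late seed.

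In the dissected seed the same gene was highest in the coat. The 5 coat libraries held 270401, 268400, 296293, 288192 and 206934 normalised counts, and the cotyledon libraries 45817, 27403, 20300, 9360 and 50645. The axis libraries held 750, 15195, 34509, 8753 and 11526. No embryo library reached the lowest coat library. Relative to their group means, the embryo values spread far more widely than the coat values. The coat was higher by 3.15 ± 0.59 (SE) on the log2 scale than the cotyledon (edgeR adjusted p = 1.32e-04) and by 4.26 ± 0.63 than the axis (edgeR adjusted p = 5.03e-06).

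A different profile belonged to Sc19g0000810, next in mid-seed level. It held 16225 to 45818 normalised counts in early seed with a median of 19567, 15055 to 30962 in mid seed with a median of 22921, and 2212 to 8508 in late seed with a median of 4655. In dry seed it still held 1193 to 4918, with a median of 2346, so the late and dry libraries overlapped. Over the tissues it held 8390, 8379, 8558, 12524 and 6373 in cotyledon and 9151, 9876, 9008, 9106 and 8090 in the coat, groups that overlapped. The axis, with 2554, 3546, 3971, 3315 and 3920, lay below all of them. The coat differed from the cotyledon by 0.05 ± 0.16 on the log2 scale (edgeR adjusted p = 0.789), while it exceeded the axis by 1.41 ± 0.16 (edgeR adjusted p = 2.10e-07).

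**Figure D2:**
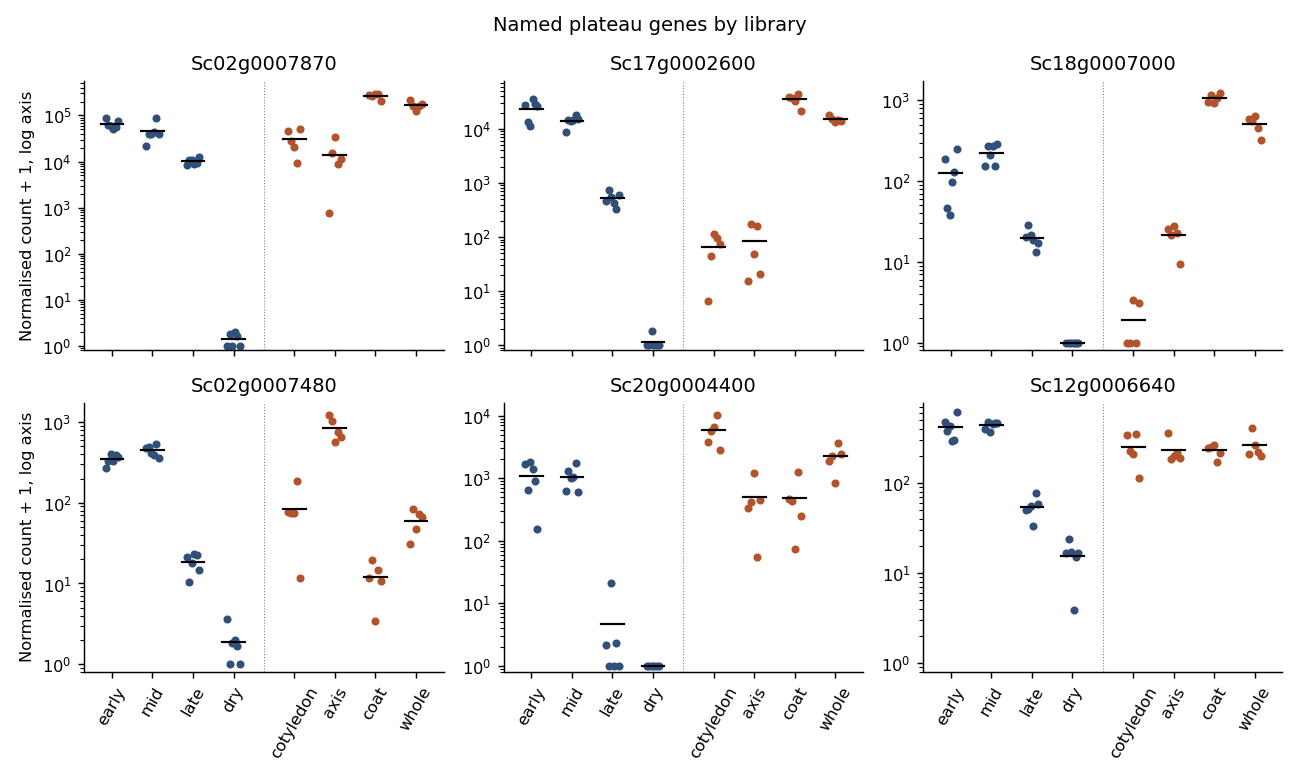
Normalised count plus 1, on a log axis, of 6 of the genes in each library, with bars at group means, the time course in blue and the dissection series in red, which were scaled separately and are not to be compared by height. Sc02g0007870 and Sc17g0002600 fall to late-seed medians of 9963 and 511 and are near 0 in dry seed. Sc20g0004400 is near 0 in late and dry seed except in late-seed library 3, and Sc12g0006640 holds similar levels in all dissected tissues.

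Over the dissected tissues the genes did not share 1 site. Their highest mean lay in the cotyledon for 47, in the axis for 77 and in the coat for 76. This was not counted over all genes, so it does not set the 200 apart. With an edgeR adjusted p under 0.05 over all 18499 genes tested, 199 of the 200 could be tested, and the 1 left out by the filter on low counts was Sc11g0005070. Between seed coat and cotyledon, 64 of the 199 were higher in the coat (32.2%), where 28.3% of all genes were. In the other direction 69 were lower in the coat (34.7%), where 29.7% of all genes were. These shares lay close to those of all genes, and their order turned without cotyledon library 4, to 62 higher and 54 lower. Shares of larger differences lay farther from those of all genes. At 2-fold or more, 58 were higher in the coat (29.1%, background 13.3%) and 53 lower (26.6%, background 16.2%).

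Between seed coat and embryonic axis, 78 genes were higher in the coat (39.2%, background 31.5%) and 68 lower (34.2%, background 33.0%). At 2-fold or more there were 69 higher (34.7%, background 16.9%) and 59 lower (29.6%, background 19.6%). Between cotyledon and axis, 65 were higher in the cotyledon (32.7%, background 22.9%) and 46 lower (23.1%, background 20.5%). At 2-fold or more there were 53 higher (26.6%, background 9.69%) and 33 lower (16.6%, background 9.3%). The median difference was small in all comparisons, at -0.15 on the log2 scale for coat over cotyledon, with -0.002 over all genes. Single genes ran from -4.19 to 10.24 there and from -6.15 to 9.82 for coat over axis.

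Over the comparisons with the coat, 54 of the 199 genes tested were higher in the coat than in both embryo parts (background 21.3%). Lower than in both were 43 of the 199 (background 21.1%), close to the share of all genes. Another 11 were above one embryo part and below the other (background 2.48%), of which 8 were above the axis and below the cotyledon. No difference passed the test in any comparison for 29 genes, the untested Sc11g0005070 among them (background 19.8% of genes tested). These are bulk libraries, in which fewer cells of a type and less RNA per cell cannot be told apart.

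**Figure D3:**
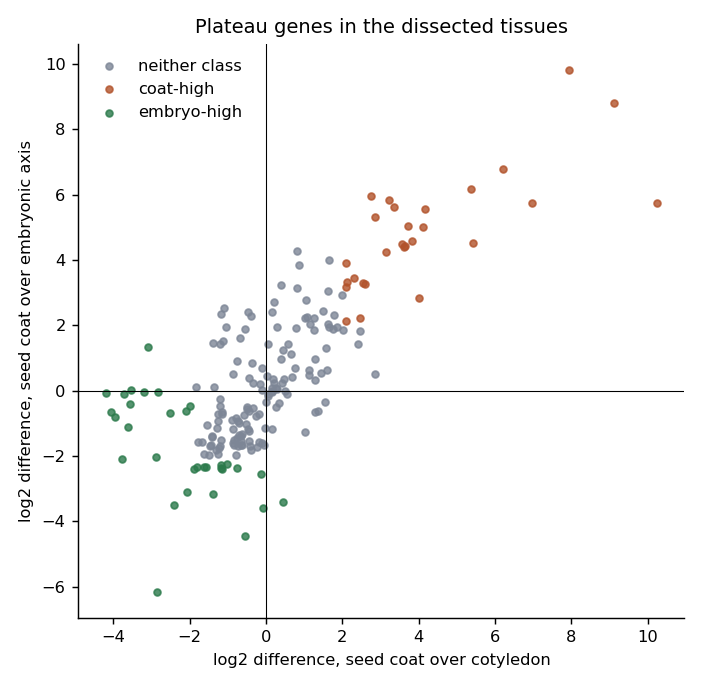
Each point is 1 of the 199 genes tested, with the log2 difference of seed coat over cotyledon on the horizontal axis and of seed coat over embryonic axis on the vertical axis, coloured by tissue class. The points spread from -4.19 to 10.24 horizontally and from -6.15 to 9.82 vertically, and the coat-high genes reach farther from the origin than the embryo-high genes.

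A split of the 200 genes by tissue means, raised by 1, gave 3 classes. Coat-high genes, at least 4-fold higher in the coat than in each embryo part, numbered 28, or 14.0%, where 3.15% of all genes tested were coat-high. Embryo-high genes, with the higher embryo part at least 4-fold above the coat, numbered 32, or 16%, where 13.0% of all were. The other 140, or 70.0%, were in neither class, where 83.9% of all were. Among the genes at 20 in early and mid seed, the shares were 2.83% coat-high, 7.81% embryo-high and 89.4% neither. At a 2-fold limit the classes held 47, 88 and 65 genes, or 23.5%, 44% and 32.5% (backgrounds 10.1%, 26.4% and 63.5%). The embryo-high genes were themselves divided, with 15 highest in the cotyledon and 17 in the axis. Within them 10 were at least 4-fold higher in cotyledon than in axis and 5 the reverse.

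The classes differed in the size of each step. Coat-high genes had medians of 466 normalised counts in early, 387 in mid, 68.7 in late and 0.350 in dry seed. Embryo-high genes had 330, 429, 20.7 and 1.53, and the genes in neither class 465, 433, 46.4 and 8.46. In fold terms, the medians of coat-high genes thus fell most after late seed and those of embryo-high genes most before it. The rule required at least 4-fold from mid to late seed of every gene, so this order is in part a property of the choice. Embryo-high genes also entered the last step from a median of 20.7, which limits the fold that can be seen there. As medians of the gene ratios, the step from mid to late seed was 6.17-fold for coat-high genes, 13.0-fold for embryo-high genes and 7.57-fold for the others. The step from late to dry seed was 31.3-fold, 3.89-fold and 4.70-fold, or 40.2-fold, 3.93-fold and 5.17-fold with means not raised by 1 and genes without dry-seed counts at the floor. Among all genes at 20 in early and mid seed the same classes had medians of 17.2-fold, 2.1-fold and 1.03-fold in the last step, so coat-high genes were first there too. For the step from mid to late seed those genes had 1.90-fold, 1.15-fold and 1.02-fold. Without late-seed libraries 4 and 6, left out after seeing the data, the step from mid to late seed was 6.04-fold, 11.4-fold and 7.40-fold.

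Counts of genes by class were as follows. Dry seed was at least 16-fold below late seed in 21 of 28 coat-high genes, 6 of 32 embryo-high genes and 31 of 140 others. A mean under 2 normalised counts in dry seed was found for 20, 17 and 33 of them. Neither was counted over all genes, and the rule asked for low dry-seed levels. Of the 18 genes higher in dry than in late seed, 2 were coat-high, 1 was embryo-high and 15 were in neither class. Among all genes at 20 in early and mid seed, 10.9% of coat-high, 34.8% of embryo-high and 48.7% of the other genes were higher in dry than in late seed. On the plateau itself, early seed was above mid seed in 21 of the 28 coat-high genes, 16 of the 32 embryo-high genes and 84 of the 140 others. The median early over mid ratios were 1.42, 0.990 and 1.12. Among all genes at 20 in early and mid seed, not capped at 2-fold, the same classes had 1.56, 0.633 and 1.05.

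**Figure D4:**
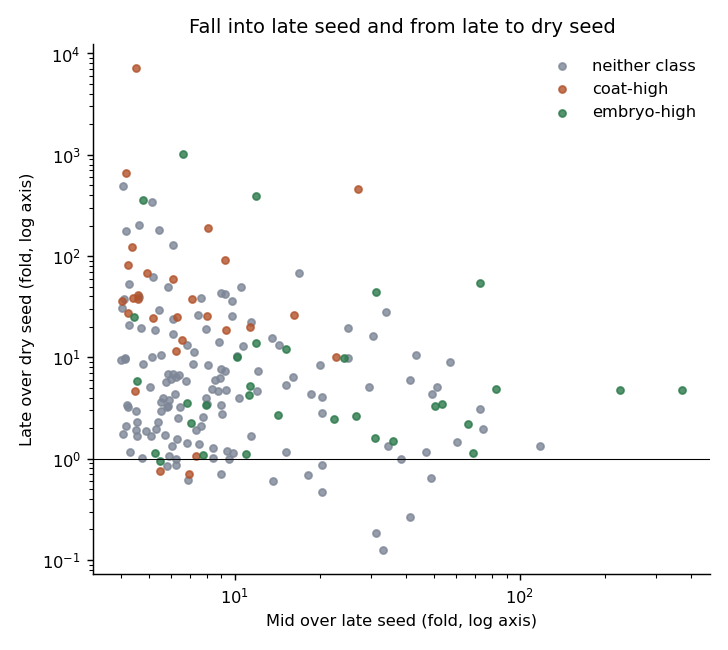
For each gene the mid over late ratio of means is on the horizontal log axis and the late over dry ratio on the vertical log axis, each mean raised by 1, with a line at a late over dry ratio of 1 and colours for the tissue classes. Coat-high points (28) lie mostly at the left and high, embryo-high points (32) extend to the right, and 18 genes lie below the line.

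As shares of library counts, the coat-high genes held 1.05% ± 0.13 (SD, n = 6) in early and 0.656% ± 0.232 in mid seed, then 0.0997% ± 0.0146 in late and 0.00189% ± 0.00029 in dry seed. Mid-seed library 5 stood alone at 1.09%, with the other mid libraries between 0.380% and 0.634%. Embryo-high genes held 0.275% ± 0.016 in early, 0.298% ± 0.041 in mid, 0.0232% ± 0.0080 in late and 0.00190% ± 0.00047 in dry seed. Their late-seed share was lowest in libraries 4 and 6. The genes in neither class held 1.28% ± 0.15, 1.03% ± 0.10, 0.132% ± 0.027 and 0.0390% ± 0.0153, and made up most of what was left in dry seed.

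In the dissection series the coat-high genes took 1.99% ± 0.19 (SD, n = 5) of coat counts and 1.19% ± 0.19 of whole-seed counts, or 0.475% ± 0.063 and 0.255% ± 0.027 without Sc02g0007870. In the embryo parts their share varied widely, from 0.0590% to 0.317% among cotyledon libraries, with libraries 1 and 5 highest, and from 0.0166% to 0.243% among axis libraries, with library 3 highest. Most of this variation sat in Sc02g0007870. Without that gene the coat-high share ran from 0.0191% to 0.0439% in cotyledon and from 0.0122% to 0.0339% in axis, below the lowest coat library at 0.380%. Cotyledon libraries 1 and 5, at 0.0436% and 0.0439%, and axis library 3 were still the highest, so the variation was not confined to that gene. What sets these differences between embryo libraries was not tested.

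**Figure D5:**
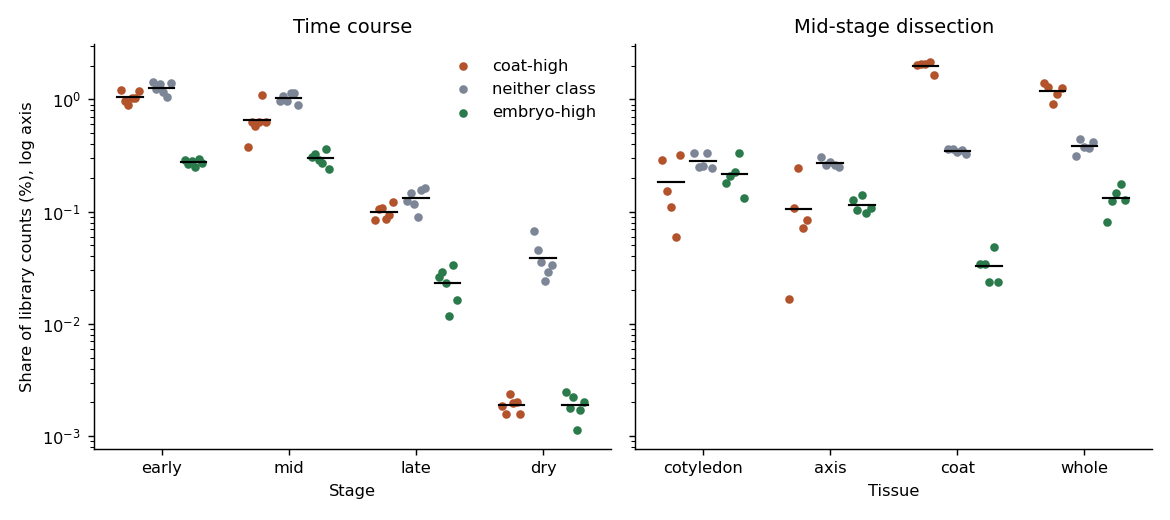
Percent of library counts, on a log axis, held by the 28 coat-high genes, the 32 embryo-high genes and the 140 genes in neither class, 1 point per library and bars at group means, in the time course (left) and the dissection series (right). Coat-high genes take 1.99% on average in the coat and 0.00189% in dry seed, where genes in neither class keep 0.0390%.

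The widest gaps between coat and embryo were found in 3 genes, of which Sc08g0004220 was near 0 in both embryo parts. Sc18g0007000 held 965, 1170, 933, 1074 and 1218 normalised counts in the coat. In the axis it held 24.3, 20.5, 26.8, 21.9 and 8.40, and in the cotyledon 3 reads were counted over all libraries, with none in libraries 1, 2 and 4. The groups stood in separate bands, coat over axis over cotyledon. The pooled coat to cotyledon ratio, 5850 reads against 3, was 1624 with a 95% exact interval from 556 to 7879, and the coat exceeded the axis by 5.76 ± 0.28 on the log2 scale (edgeR adjusted p = 3.86e-13). The fitted coat over cotyledon difference was 10.24 ± 0.42 (edgeR adjusted p = 6.10e-14). In the time course it had medians of 114 in early, 241 in mid and 18.4 in late seed and no count in dry seed, so that mid seed was at least 92.9-fold above the floor there.

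Sc17g0002600, next largest in both coat comparisons, was at 38268, 37576, 33404, 45046 and 21236 normalised counts in the coat. It was at 5.70, 43.2, 114, 93.5 and 72.7 in the cotyledon and at 14.1, 174, 47.2, 157 and 20.2 in the axis. The embryo parts overlapped each other and lay far under the coat. The coat was higher by 9.11 ± 0.72 on the log2 scale than the cotyledon (edgeR adjusted p = 1.18e-09) and by 8.80 ± 0.70 than the axis (edgeR adjusted p = 9.09e-10). Its time-course medians were 26968 in early, 14618 in mid and 511 in late seed, and 1 read was counted in all of dry seed against 2762 in late seed.

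Sc08g0004220 was at 575, 602, 692, 693 and 642 normalised counts in the coat. Of the axis libraries only 4 and 5 had reads, 4 in all, and of the cotyledon libraries only 5, with 10 reads. The pooled coat to axis ratio was 1043, with a 95% exact interval from 407 to 3831, and the fitted difference was 9.82 ± 0.58 on the log2 scale (edgeR adjusted p = 8.25e-12). It kept more reads in dry seed than the other coat genes named, 33 over all libraries, from 0 to 7.89 normalised counts with a median of 5.31.

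The 2 genes with the deepest falls after mid seed were both highest in the cotyledon. Sc10g0005190 ranged from 1016 to 3445 normalised counts in early seed with a median of 2029 and from 685 to 4182 in mid seed with a median of 1419. In late seed its median was 0.553, with library 3 at 19.0 and the others at no more than 2.71, and no read was counted in dry seed. The mid to late ratio of means was 470, a value set by library 3, and mid seed was at least 739-fold above the dry-seed floor. Over the tissues it held 387, 699, 853, 1866 and 388 in cotyledon, 31.4, 57.7, 120, 36.2 and 222 in axis and 93.1, 97.7, 1.23, 187 and 63.1 in coat. All cotyledon libraries lay above all others, and the coat over cotyledon difference was -3.20 ± 0.65 on the log2 scale (edgeR adjusted p = 2.60e-04).

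Sc20g0004400 ranged from 156 to 1839 normalised counts in early seed with a median of 1144 and from 610 to 1761 in mid seed with a median of 1034. Its late-seed median was 0.597, again with library 3 highest at 19.9 and the others at no more than 1.36, and it had no read in dry seed. Its mid to late ratio was 284 and mid seed was at least 439-fold above the dry-seed floor. The cotyledon held 3867, 5715, 6496, 10238 and 2859, the axis 335, 415, 1216, 54.8 and 443 and the coat 464, 430, 72.7, 1243 and 244. Cotyledon exceeded axis by 3.56 ± 0.67 on the log2 scale (edgeR adjusted p = 2.05e-04), and coat and axis overlapped, at a difference of 0.03 ± 0.61 (edgeR adjusted p = 0.973).

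Sc17g0001750 shared this shape at a higher level. It ranged from 1845 to 4229 normalised counts in early seed with a median of 2466 and from 2703 to 4747 in mid seed with a median of 3965. In late seed library 3 held 248 and the others 3.68 to 39.3, and dry seed had no read. The cotyledon held 8357, 15150, 19461, 31867 and 10193, the axis 891, 1663, 3854, 349 and 2928 and the coat 893, 920, 240, 2568 and 762. The coat was below the cotyledon, with a difference of -3.96 ± 0.61 on the log2 scale (edgeR adjusted p = 1.40e-05). Sc10g0005190, Sc20g0004400 and Sc17g0001750 had the same library highest in late seed (3), cotyledon (4) and coat (4), and the same lowest coat library (3).

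In Sc01g0000020 and Sc03g0009770 the cotyledon again stood above the other tissues, and some counts were left in dry seed. Sc01g0000020 held 362, 437, 668, 572 and 209 normalised counts in cotyledon, 27.5, 53.9, 43.4, 43.8 and 42.6 in axis and 33.6, 43.0, 8.63, 29.0 and 11.0 in coat. The coat lay below the cotyledon in every library, with a difference of -4.06 ± 0.46 on the log2 scale (edgeR adjusted p = 2.41e-07). Its time-course medians were 250 in early, 305 in mid, 5.05 in late and 1.32 in dry seed. Sc03g0009770 held 303, 264, 448, 401 and 135 in cotyledon and 23.5, 53.0, 19.1, 17.5 and 15.1 in axis, without overlap. Its cotyledon was higher by 3.61 ± 0.49 on the log2 scale than its axis (edgeR adjusted p = 5.53e-06). The time-course medians of Sc03g0009770 were 1327 in early, 866 in mid, 28.4 in late and 3.99 in dry seed.

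Genes higher in the axis formed another group. Sc02g0007480 held 1222, 1029, 570, 757 and 659 normalised counts in axis, 75.3, 73.1, 73.5, 187 and 10.5 in cotyledon and 10.8, 18.7, 2.47, 13.6 and 9.60 in coat. The axis stood above all other libraries, while cotyledon and coat overlapped in part. The coat was still lower than the cotyledon, with a difference of -2.85 ± 0.53 on the log2 scale (edgeR adjusted p = 1.13e-04). The coat over axis difference was -6.15 ± 0.55 on the log2 scale (edgeR adjusted p = 4.95e-09), the lowest of the 199. Its time-course medians were 351 in early, 443 in mid, 18.7 in late and 0.762 in dry seed.

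Sc13g0005200 had the highest counts of the axis genes named. It held 6122, 4521, 9395, 4664 and 6223 normalised counts in axis, 432, 242, 510, 771 and 108 in cotyledon and 157, 422, 208, 337 and 255 in coat. Cotyledon and coat overlapped well under the axis. The coat over axis difference was -4.45 ± 0.44 on the log2 scale (edgeR adjusted p = 2.36e-08), and the cotyledon over axis difference was -3.90 ± 0.43 (edgeR adjusted p = 4.39e-07). In the time course its medians were 1174 in early, 1106 in mid, 93.6 in late and 22.3 in dry seed.

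Sc07g0007390 held 217, 138, 159, 256 and 200 normalised counts in axis, 6.84, 49.8, 11.8, 14.4 and 5.27 in cotyledon and 16.5, 28.1, 2.47, 20.8 and 8.23 in coat. The axis again lay above every other library. Its cotyledon over axis difference was -3.50 ± 0.59 on the log2 scale (edgeR adjusted p = 7.13e-05). In whole seed it was at 6.56 to 47.2, and in the time course its medians were 120 in early, 134 in mid, 1.70 in late and 1.1 in dry seed.

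The most even gene over the tissues was Sc12g0006640. It held 346, 229, 209, 354 and 114 normalised counts in cotyledon, 362, 186, 199, 215 and 191 in axis and 245, 251, 266, 171 and 217 in coat. All groups overlapped, and the differences were -0.10 ± 0.27 for coat over cotyledon, 0.02 ± 0.27 for coat over axis and 0.13 ± 0.27 for cotyledon over axis on the log2 scale (edgeR adjusted p = 0.760, 0.944 and 0.729). A difference within these errors was not detectable. Its time-course medians were 405 in early, 458 in mid, 53.3 in late and 15.8 in dry seed. The mid over late ratio of its means was 8.14.

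A pair of genes chosen after their values were seen had more counts in dry than in late seed. Sc15g0005870 ranged from 0 to 7.74 normalised counts in late seed with a median of 5.2 and from 19.7 to 81.1 in dry seed with a median of 38.3, without overlap, a 9.57-fold difference of means. Sc11g0005070 ranged from 1.11 to 9.82 in late seed with a median of 5.10 and from 14.5 to 73.9 in dry seed with a median of 23.6, without overlap and 6.28-fold apart. Their mid-seed medians were 181 and 188, so dry seed remained below the plateau in both. Over the tissues Sc15g0005870 had overlapping groups and no difference passed the test, with coat over axis at -0.77 ± 0.57 on the log2 scale (edgeR adjusted p = 0.244). Sc11g0005070 had few counts in the dissected seed, from 0 to 18.5 in cotyledon, 6.58 to 12.1 in axis and 2.72 to 8.24 in coat.

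Whole seed of the dissection series lay between the dissected parts for most of the genes. Its mean was between the lowest and highest part in 174 of the 200 (87.0%), as for 83.9% of the 17842 genes at 20 normalised counts in a tissue. It was above all parts in 19 (9.50%, background 4.87%) and below all in 7. Means under 20 normalised counts were found for 13 of the genes in cotyledon, 22 in axis, 12 in coat and 5 in whole seed. Spread between libraries was wider than for all genes at 20 in the tissue, a level not asked of the 200 genes. The median coefficient of variation was 40.9% in cotyledon, against 23.2%. In axis, coat and whole seed it was 27.4%, 27.7% and 27.9%, against 13.6%, 18.6% and 15.1%.

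The genes were scattered over the identifiers. They fell on 25 of the 27 leading identifier prefixes, with at most 15 on one, and 2 pairs were neighbours in the table. Single-gene values carry an uncertainty from copies of near-identical sequence, among which reads may be split. Reads from an antisense gene can be separated only where counting used strand, on which the sources used here say nothing.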

How the data were processed

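RNA was extracted with hot borate and made into stranded mRNA libraries, per the labels. Tools named in the submitters' processing notes are Trimmomatic, STAR and DESeq2. Not given in the sources used here were the genome build, annotation, counting step, use of strand and tool versions. The authors deposited whole-number read counts per gene in 2 tables, 1 for the time course and 1 for the dissection series, over 23491 genes. They also deposited normalised values, taken as a signal scaled to library size. Within each library the count divided by the deposited normalised value was 1 factor for all genes, to a relative deviation of at most 1.1e-09. The tables were normalised separately, so tests ran within a table. Replicates all differed by more than sampling noise, with chi-square over degrees of freedom of at least 8.84 and 10.9 in the tables.

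The genes, classes and lists were chosen with earlier results of these data known. Group means of the deposited values, raised by 1, gave the 200 genes. The tissue counts were tested with edgeR 4.0.16 in R 4.3.3 (TMM, filterByExpr, glmQLFit, glmQLFTest), with 4 groups in 1 fit, 3 contrasts, Benjamini-Hochberg adjustment over 18499 genes and a threshold of 0.05. The script was tested on simulated data. Shares are percent of library counts. Intervals on pooled ratios are 95% exact intervals, and a count of 0 is read against 3 counts per library; both cover counting error only.

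The rule for named genes took the 2 highest in mid seed, the 2 with the deepest fall, the genes at each threshold, the most even over the tissues, and in each contrast the 2 with the largest difference in each direction. The last had an adjusted p under 0.05, no overlap and a higher group of at least 10 CPM. Gene lists planned by name were not used, since identifiers come without names. Alternatives were DESeq2 1.42.0, other scalings, no filter, 2 groups only, a replicate block, each library left out and other settings of the rule. Tables used pandas 2.3.3 and numpy 2.4.6 in Python 3.11.15, and plots matplotlib 3.10.9.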

Additional observations from a re-analysis of the deposited data

Results flagged for a closer look

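In 176 groups of values from named genes and gene classes, 19 had 1 library set apart from the rest by Dixon's criterion, which chance gives in about 1 in 20 groups. These groups share libraries and are not independent.

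In the time course, mid-seed library 5 stood above the others in Sc02g0007870, at 89868 normalised counts against 22171 to 44742, and in Sc15g0005800, at 206.8 against 47.1 to 101.1. The same library had the highest coat-high share, at 1.09% against 0.380% to 0.634%. Late-seed library 3 was highest in Sc10g0005190 at 19.0 against at most 2.71, in Sc20g0004400 at 19.9 against at most 1.36 and in Sc17g0001750 at 248 against 3.68 to 39.3. Late-seed library 2 was highest in Sc03g0009770, at 190.2 against 17.2 to 71.7. Early-seed library 1 was highest in Sc07g0007390, at 311 against 69.7 to 139.0. In dry seed the values set apart were 0.842 in library 3 for Sc17g0002600, where the others were at 0, and 2.64 in library 1 for Sc02g0007480, where the others were at most 0.968. Both rest on very few reads.

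In the dissection series, axis library 1 was highest in Sc08g0004290, at 465 normalised counts against 206.8 to 254, and in Sc12g0006640, at 362 against 186 to 215. Axis library 2 was highest in Sc03g0009770, at 53.0 against 15.1 to 23.5. Whole-seed library 2 was highest in Sc08g0004290, at 311 against 102.8 to 159.7. Cotyledon library 5 alone held Sc08g0004220, at 10.5, and cotyledon library 2 was highest in Sc07g0007390, at 49.8 against 5.27 to 14.4. Over all 200 genes, axis library 3 had the highest share of counts, at 0.664% against 0.431% to 0.470%, and coat library 5 the lowest, at 2.01% against 2.43% to 2.54%. The coat-high share of coat library 5 was likewise lowest, at 1.66% against 2.04% to 2.14%.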

How the results depend on the processing

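Across DESeq2, other scalings, no filter, only the groups compared, a replicate block and both cotyledon libraries 1 and 5 left out (the last chosen after seeing the data), the counts of plateau genes stayed within 1.5 times. Coat over cotyledon gave 61 to 66 higher and 62 to 76 lower, coat over axis 75 to 78 and 69 to 72, and cotyledon over axis 56 to 69 and 41 to 52. Leaving out each library in turn gave 60 to 65 higher and 54 to 80 lower for coat over cotyledon, 74 to 77 and 65 to 69 for coat over axis, and 58 to 70 and 40 to 56 for cotyledon over axis. The replicate block gave 66 and 63, 76 and 70, and 63 and 46. Of 30 same-number pairs, 6 correlated over 0.1 (range -0.257 to 0.251), and 3 of 20 libraries correlated best with their own number. Weak correlations with 5 libraries per group cannot exclude pairing, so whether same-number samples were paired is not known. Of the 24 single-gene differences printed with a p, the 18 that passed kept their direction and stayed under the threshold in all 299 values over these settings. None of the 6 that did not pass came under it, and their sign changed in 27 of 99 values. Sc19g0000810, coat over cotyledon, was at -0.10 without both cotyledon libraries and at -0.045 to 0.18 with each library left out. Sc20g0004400, coat over axis, was at -0.0052 with DESeq2's size factors, -0.0049 with its Wald test, -0.031 with upper-quartile scaling, -0.020 with no filter, -0.25 with the block and -0.66 to 0.64 with each library left out. Sc12g0006640, coat over axis, was at -0.0020 with DESeq2's size factors, -0.0021 with its Wald test, -0.035 with upper-quartile scaling, -0.0066 with no filter and -0.077 to 0.21 with each library left out. Its coat over cotyledon ran from -0.30 to 0.038 and its cotyledon over axis from -0.037 to 0.32 with each library left out.

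The membership rule mattered more. An 8-fold fall gave 106 genes, 77 of them among the 200, and 101 tested. Of these, 18 were higher (17.8%, background 28.3%) and 42 lower (41.6%, background 29.7%) in coat than in cotyledon. Against the axis, the coat was higher in 26 (25.7%, background 31.5%) and lower in 42 (41.6%, background 33.0%). The cotyledon was above the axis in 28 (27.7%, background 22.9%) and below it in 20 (19.8%, background 20.5%). Shares higher in the coat were thus below those of all genes, unlike in the 200. Its classes held 7 coat-high genes (6.60%, against 14.0%), 33 embryo-high (31.1%, against 16%) and 66 in neither class. Without the limit of 200 genes, 51 of 286 were embryo-high (17.8%, against 16%), so that share moved little. A 2-fold class limit gave 47, 88 and 65. With at most 3 counts in each dry library, 60 genes in place of 19 were near 0. Group medians kept 174 of the 200 genes, and leaving out late-seed libraries 4 and 6, chosen after seeing the data, kept 185. The cause was not tested. The median of all genes for coat over axis moved from -0.05 to -0.11 on the log2 scale with upper-quartile scaling and to -0.15 with no filter. In dry seed, values of genes with at most 3 counts in a library are limited by counting error.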

Other observations

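Whole seed of the dissection series and mid seed of the time course carry the same stage label, yet the plateau genes were lower in the former. The tables were normalised separately, so CPM, counts scaled to each library total, were set side by side without a test. The median over the 200 genes was 40.1 CPM in early, 32.9 in mid and 3.10 in late seed of the time course and 13.2 in whole seed. The median ratio of whole to mid seed was 0.368, whole seed was lower in 185 genes (92.5%), and every whole-seed library lay below every mid-seed library in 122 (61.0%). In 173 genes (86.5%) whole seed lay between late and mid seed. Over the 16019 genes with at least 2 CPM in mid seed the median ratio was 0.83, 64.3% were lower, 31.1% did not overlap and 24% lay between late and mid seed. The genes were chosen to be high in mid seed and low in late seed. Both choices bear on the ratio of whole to mid seed and on these shares.

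The classes differed in this ratio. It was 0.922 for coat-high genes, 0.238 for embryo-high genes and 0.350 for genes in neither class, where all genes of the same classes at 2 CPM had 1.44, 0.608 and 0.837. Stage, seed handling and separate processing cannot be told apart here.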
